A study of Homo sapiens with 8 samples.

Results

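TFIID, SAGA and ATAC are large coactivator complexes of RNA polymerase II transcription, and 35 genes for their subunits are described here in a CRISPRi growth screen. A gene was taken where an sgRNA name carried its symbol and a primary promoter set (marked P1 or P1P2), and sgRNAs with a mean count of 20 or more over the 8 libraries were kept. The rule found 34 of the 35 genes, with 168 kept sgRNAs of 209070 sgRNAs listed, among 17547 genes tested. Of the 34 genes, 30 had 5 kept sgRNAs, 3 had 4 (TAF1, TADA2A and ENY2) and 1 had 6 (TAF9). The remaining gene, ATXN7, has sgRNA sets named by transcript alone and is described apart. CCDC101 is the older symbol of SGF29.

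TFIID binds core promoters through TBP and its TBP-associated factors, the TAFs, and helps to place RNA polymerase II at the start site. SAGA shares some TAFs with TFIID, has paralogs of others, delivers TBP, and carries a histone acetyltransferase module and a deubiquitinase module. ATAC is a separate acetyltransferase complex that uses the same catalytic subunits (KAT2A or KAT2B), with the adaptor TADA2A where SAGA has TADA2B.

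The screen was run in K562, a human leukemia line, and sgRNAs were amplified from genomic DNA and counted. All cells carried dCas9-KRAB, an inactive Cas9 fused to a repressor domain, which an sgRNA brings to a promoter to lower transcription of that gene. They also expressed uL16, a protein of the large ribosomal subunit, as the wild-type or a mutant form, and the labels do not say which mutation this is or whether either line is 1 clone. Transduced cells grew under 1 µg/ml puromycin for 3 days. Day 0 and day 9 samples, the latter after 10 cell doublings per the design text, make 4 groups of 2 libraries: wild-type uL16 on each day and mutant uL16 on each day. Nothing in the labels says that the 2 libraries of a group came from separate cultures, so p-values measure the spread between these libraries, which may be technical. Knockdown and transcript levels were not measured.

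Library totals ran from 39233340 to 143585751 counts, and the median kept sgRNA had 331 to 1224 counts. The 1894 control sgRNAs, which target no gene, changed from day 0 to day 9 by a median log2 of 0.049 in wild-type and 0.044 in mutant cells, and the middle 95% of them lay between -0.71 and 0.63 and between -0.68 and 0.61. The cell line could be checked by growth effects alone. Of 5 genes on which K562 cells are known to depend, TAL1 and ABL1 lacked 3 kept sgRNAs of a primary promoter set and were not tested. The 3 tested all fell in both lines: GATA1 at -3.09 (SE 0.20) and -2.65 (SE 0.19), BCR at -1.89 (SE 0.16) and -2.21 (SE 0.16), and LMO2 at -0.63 (SE 0.14) and -1.10 (SE 0.14). Of 14 olfactory receptor genes, 0 were called in either line by edgeR. Of all genes 9.28% and 9.07% were called lower and 0.986% and 0.798% higher, so 0 of 14 is near the background. At an unadjusted p under 0.05 there were 2 higher in wild-type (6.63% of all genes) and 0 in mutant cells (5.04%). At that p 0 were lower in either line (13.6% and 13% of all genes).

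CRISPRi acts at the promoter, so upstream sequence is shown for 4 genes, chosen after their values were seen, that had both sgRNAs that fell and sgRNAs that did not. They are the 250 bases upstream of the RefSeq start (build GRCh38.p14), read 5′ to 3′ on the strand of the gene. The windows are chr11:6612217-6612466 (minus strand) for TAF10, chr1:28643068-28643317 (minus) for TAF12, chr13:37059689-37059938 (minus) for SUPT20H and chr11:62771146-62771395 (plus) for TAF6L. Capitals mark matches to the GC box, CCAAT box, ETS and CRE motifs spelled out below. The positions in the sgRNA names belong to another build, so no sgRNA is placed in these windows, and the sgRNAs of TAF10, TAF12 and TAF6L span 480, 412 and 488 bases, more than a window holds.
TAF10: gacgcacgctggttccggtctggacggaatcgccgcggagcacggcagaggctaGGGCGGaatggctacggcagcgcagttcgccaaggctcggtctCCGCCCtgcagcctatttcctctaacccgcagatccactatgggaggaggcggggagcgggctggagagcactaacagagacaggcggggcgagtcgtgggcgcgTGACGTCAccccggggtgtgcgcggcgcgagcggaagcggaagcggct
TAF12: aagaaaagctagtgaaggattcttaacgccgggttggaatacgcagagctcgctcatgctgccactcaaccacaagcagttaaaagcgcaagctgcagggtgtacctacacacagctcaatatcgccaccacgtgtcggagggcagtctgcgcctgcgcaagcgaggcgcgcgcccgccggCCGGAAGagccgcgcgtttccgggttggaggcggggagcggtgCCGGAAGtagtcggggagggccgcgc
SUPT20H: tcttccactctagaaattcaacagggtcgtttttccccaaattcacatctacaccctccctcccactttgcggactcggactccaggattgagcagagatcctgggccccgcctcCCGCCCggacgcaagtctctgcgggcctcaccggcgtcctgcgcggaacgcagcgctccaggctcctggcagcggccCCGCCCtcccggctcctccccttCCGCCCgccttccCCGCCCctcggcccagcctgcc
TAF6L: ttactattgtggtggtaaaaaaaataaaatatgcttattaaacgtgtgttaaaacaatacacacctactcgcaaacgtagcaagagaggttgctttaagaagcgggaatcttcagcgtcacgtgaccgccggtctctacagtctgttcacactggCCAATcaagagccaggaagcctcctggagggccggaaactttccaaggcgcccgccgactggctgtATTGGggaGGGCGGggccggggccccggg

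None of the 4 windows held the TATA box letters TATAAA. The TAF10 window held 2 GC boxes and a CRE, the TAF12 window 2 ETS motifs, the SUPT20H window 4 GC boxes, and the TAF6L window 2 CCAAT boxes and 1 GC box. Over the 45 promoters in the table for 31 of the 35 genes, TATAAA stood in 6.67% (10.7% of all 35116 promoters), CCAAT in 28.9% (32.0%), the GC box GGGCGG in 60.0% (42.6%), the ETS motif CCGGAAG in 22.2% (8.52%) and the CRE TGACGTCA in 2.22% (1.65%). Each motif was searched on both strands, and a gene may have several promoters, which share letters. A match describes the letters and was not tested as a binding site.

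Loss of sgRNAs was common among these genes and lay mostly in TFIID and the SAGA core. The edgeR quasi-likelihood test on counts summed per gene, at a Benjamini-Hochberg adjusted p under 0.05, called 14 of 34 genes lower at day 9 in wild-type cells, where 9.28% of all genes tested were called lower, and 15 of 34 in mutant cells, where 9.07% were. It called 0 of the 34 higher in either line (0.986% and 0.798% of all genes), and 0 were higher at an unadjusted p under 0.05, beside 6.63% and 5.04% of all genes. DESeq2 called 18 and 17 of them lower and 0 higher, and limma on the mean log2 CPM of the sgRNAs (CPM are counts scaled to a common library size) 16 and 14 lower and 0 higher. Changes below are log2 changes from day 0 to day 9 with their standard error (SE), wild-type first and mutant second where a pair is given. Their median over the 34 genes was -0.29 in wild-type and -0.26 in mutant cells, beside 0.010 and 0.011 over all genes. Both day 9 libraries lay below both day 0 libraries for 25 of the 34 genes in wild-type cells, where 24.2% of all genes did so, for 21 in mutant cells, where 24.5% did, and for 19 in both, where 14.4% did.

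Of the 34 genes, 12 fell in both lines, as did 7.49% of all genes: TAF2, TAF5, TAF6, TAF7, TAF8, TAF13, TAF9, TAF12, TADA1, SUPT20H, TAF6L and USP22. TAF1 and TAF4 were called in wild-type cells alone, and TAF10, SUPT7L and TRRAP in mutant cells alone; none of these 5 genes passed the test of the difference between the lines. The other 17 were called in neither line. By module, 8 and 6 of 11 genes found in TFIID alone fell (wild-type, then mutant), 2 and 3 of 3 shared by TFIID and SAGA, 3 and 4 of 6 of the SAGA core, 0 and 1 of 1 for the scaffold TRRAP, 0 and 0 of 5 of the acetyltransferase module, 1 and 1 of 3 of the deubiquitinase module, and 0 and 0 of 5 of ATAC.

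**Figure D1:**
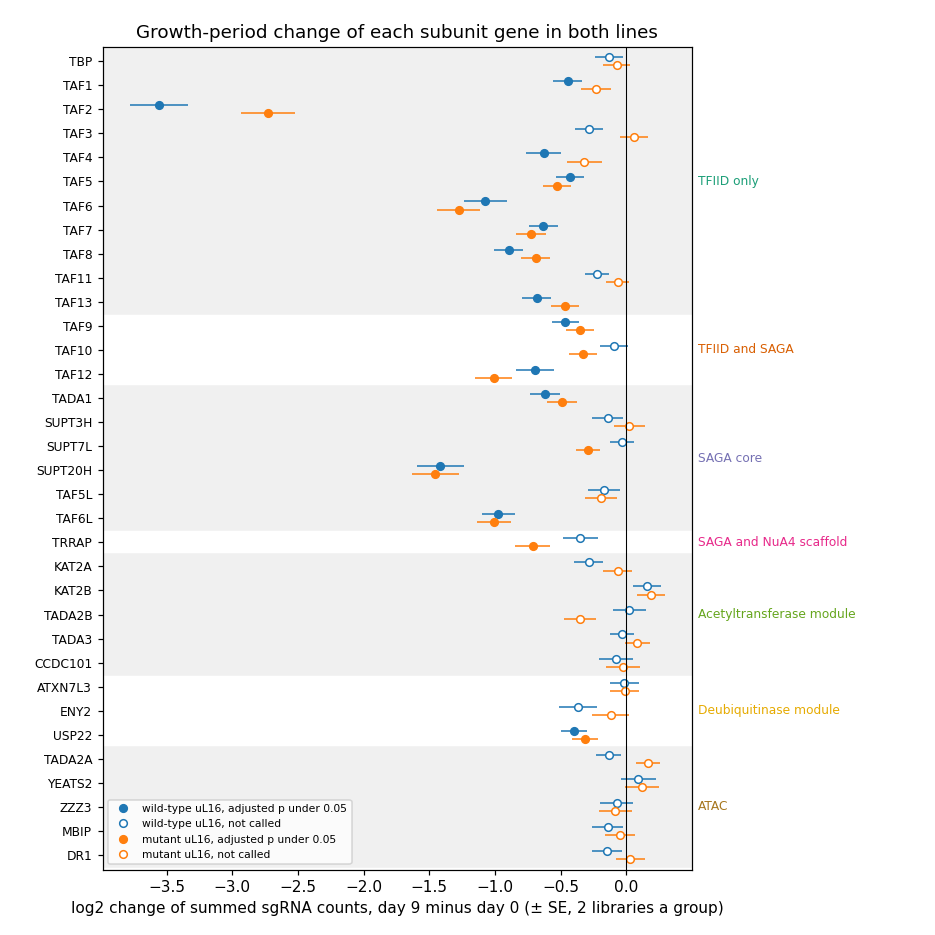
Log2 change from day 0 to day 9 of the summed sgRNA counts of each of the 34 genes (points, with SE), grouped by module, in wild-type (blue) and mutant (orange) uL16 cells; filled points passed an adjusted p of 0.05. TAF2 stands apart at -3.56 and -2.73, and the filled points lie in the TFIID and SAGA core blocks, with TRRAP and USP22 besides.

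TAF2 had the deepest loss of the 34 genes. Its protein, with TAF1, contacts core promoter DNA around the start site. The sgRNAs of TAF2 summed to 38.0 and 35.9 CPM at day 0 and 3.62 and 2.64 at day 9 in wild-type cells, and to 33.5 and 36.1 at day 0 and 6.23 and 4.48 at day 9 in mutant cells. Every day 9 library stood far below every day 0 library. The fitted change was -3.56 (SE 0.22) in wild-type and -2.73 (SE 0.21) in mutant cells, with adjusted p of 1.84e-14 and 1.44e-12 by edgeR. TAF2 ranked 14 from the lowest of 17547 genes in wild-type cells and 80 in mutant cells. All 5 of its sgRNAs were called in both lines, between -4.60 and -2.56 in wild-type and between -4.72 and -2.05 in mutant cells.

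TAF6 and TAF8, a histone-fold subunit of the TFIID core and a subunit that joins TAF10 and TAF2 in a TFIID building block, came next within TFIID in wild-type cells. TAF6 stood at 44.0 and 41.6 CPM at day 0 and 15.3 and 25.4 at day 9 in wild-type cells, and at 43.1 and 42.9 against 18.8 and 16.8 in mutant cells. It changed by -1.07 (SE 0.16) and -1.28 (SE 0.16), with adjusted p of 4.95e-06 and 1.80e-07 by edgeR, although its 2 wild-type day 9 libraries lay far apart. TAF8 stood at 56.6 and 63.4 CPM against 34.0 and 30.5 in wild-type cells, and at 65.7 and 66.0 against 41.6 and 40.1 in mutant cells. It changed by -0.90 (SE 0.11) and -0.69 (SE 0.11), with no overlap between days in either line.

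TAF7, TAF13 and TAF5 also fell in both lines. TAF7, which binds TAF1 and restrains its activity, fell, with changes of -0.63 (SE 0.11) in wild-type and -0.73 (SE 0.11) in mutant cells. TAF13, the histone-fold partner of TAF11, fell, with changes of -0.68 (SE 0.11) and -0.47 (SE 0.11), and the mutant call was lost without the second mutant day 9 library (-0.34, adjusted p 0.0824 by edgeR). TAF5, a WD40-repeat scaffold of the TFIID core, fell, with changes of -0.43 (SE 0.11) and -0.53 (SE 0.11), and the wild-type call was lost without the first wild-type day 0 library (adjusted p 0.0587).

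TAF4 and TAF1 were called in wild-type cells and not in mutant cells. TAF4, the histone-fold partner of TAF12, stood at 38.3 and 41.9 CPM at day 0 and 25.9 and 26.0 at day 9 in wild-type cells, and at 36.1 and 34.4 against 26.7 and 29.7 in mutant cells. Both day 9 libraries lay below both day 0 libraries in each line. TAF4 fell by 0.63 (SE 0.14) in wild-type cells, and its mutant change was -0.32 (SE 0.13, adjusted p 0.165 by edgeR and 0.0342 by DESeq2). TAF1, the largest TAF and a promoter-binding subunit with bromodomains, fell by 0.45 (SE 0.11) in wild-type cells and had a mutant change of -0.23 (SE 0.11, adjusted p 0.269). Without the most abundant sgRNA of each gene the wild-type change was -0.39 for TAF4 (adjusted p 0.167) and -0.045 for TAF1 (adjusted p 0.93), and TAF1 was also lost without the second wild-type day 0 library (adjusted p 0.0737) and with limma (-0.24, adjusted p 0.212).

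TBP, TAF3 and TAF11 were called in neither line. TBP, the TATA-binding protein itself, stood between 51.0 and 61.3 CPM at day 0 and between 50.2 and 58.3 at day 9 over both lines, with changes of -0.13 (SE 0.11) and -0.075 (SE 0.11). TAF3, which reads trimethylated lysine 4 of histone H3, stood at 51.6 and 53.3 CPM against 44.5 and 41.5 in wild-type cells and at 51.4 and 54.1 against 56.8 and 53.1 in mutant cells. The days did not overlap for TAF3 in wild-type cells and overlapped in mutant cells. Its changes were -0.29 (SE 0.11, adjusted p 0.0904 by edgeR) and 0.059 (SE 0.11), and scaling to the control sgRNAs brought the wild-type change past the threshold (-0.32, adjusted p 0.0442), as did DESeq2 (0.0123) and limma (-0.48, 0.0403). TAF11 changed by -0.22 (SE 0.089) and -0.067 (SE 0.088), and its wild-type change passed with DESeq2 (adjusted p 0.0266) and without the first wild-type day 9 library (-0.31, 0.0420).

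The 3 subunits shared by TFIID and SAGA were TAF9, TAF10 and TAF12, all histone-fold proteins. TAF12 stood at 44.4 and 38.5 CPM at day 0 and 25.4 and 25.7 at day 9 in wild-type cells, and at 47.7 and 43.1 against 25.7 and 19.7 in mutant cells. Day 9 lay below day 0 throughout. TAF12 fell, with changes of -0.70 (SE 0.14) and -1.01 (SE 0.14), with adjusted p of 0.000407 and 9.78e-07 by edgeR.

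TAF9 fell, with changes of -0.46 (SE 0.11) in wild-type and -0.35 (SE 0.10) in mutant cells, but 2 of its 6 sgRNAs are also listed for RAD17, a checkpoint gene, and have the same counts under both names. These 2 were the lowest of the 6 in mutant cells, at -1.40 and -1.04. Without shared sgRNAs the change of TAF9 was -0.39 in wild-type (adjusted p 0.0471 by edgeR) and -0.051 in mutant cells (adjusted p 0.905). RAD17 itself fell, with changes of -0.43 (SE 0.11) and -0.65 (SE 0.11), so a loss through either gene cannot be told apart for the shared sgRNAs. The mutant call of TAF9 was also lost without either mutant day 0 library (adjusted p 0.158 and 0.194) and without the first mutant day 9 library (0.175).

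The sgRNAs of TAF10 split widely. Summed, it stood at 53.9 and 56.2 CPM at day 0 and 49.6 and 53.6 at day 9 in wild-type cells, and at 57.3 and 55.9 against 42.7 and 47.1 in mutant cells. The change was -0.095 (SE 0.11, adjusted p 0.693 by edgeR) in wild-type cells and a fall by 0.33 (SE 0.10, adjusted p 0.0381) in mutant cells. Yet 2 of its 5 sgRNAs were called in both lines, at -3.48 and -3.80 in wild-type and at -3.41 and -2.77 in mutant cells, while the other 3 lay between 0.0086 and 0.44 and between -0.27 and 0.16. The 2 that fell were the least abundant of the 5 and contribute little to a sum: their mean counts were 293 and 122, and those of the others 863 to 1064.

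The mean log2 CPM over the sgRNAs, which weights each sgRNA equally, put the change of TAF10 at -1.32 in wild-type (adjusted p 8.63e-06 by limma) and at -1.26 in mutant cells. The 2 sgRNAs that fell lay 30 bases apart, at 450 and 480 bases from the first, and 1 that did not fall lay between them at 467. In wild-type cells the sgRNA at 450 bases went from 5.85 and 7.01 CPM to 0.379 and 0.763. The mutant call on the sum was lost without any of 5 libraries: either wild-type day 0 library (adjusted p 0.0606 and 0.0620 by edgeR), either mutant day 0 library (0.300 and 0.189), or the first mutant day 9 library (0.232).

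**Figure D2:**
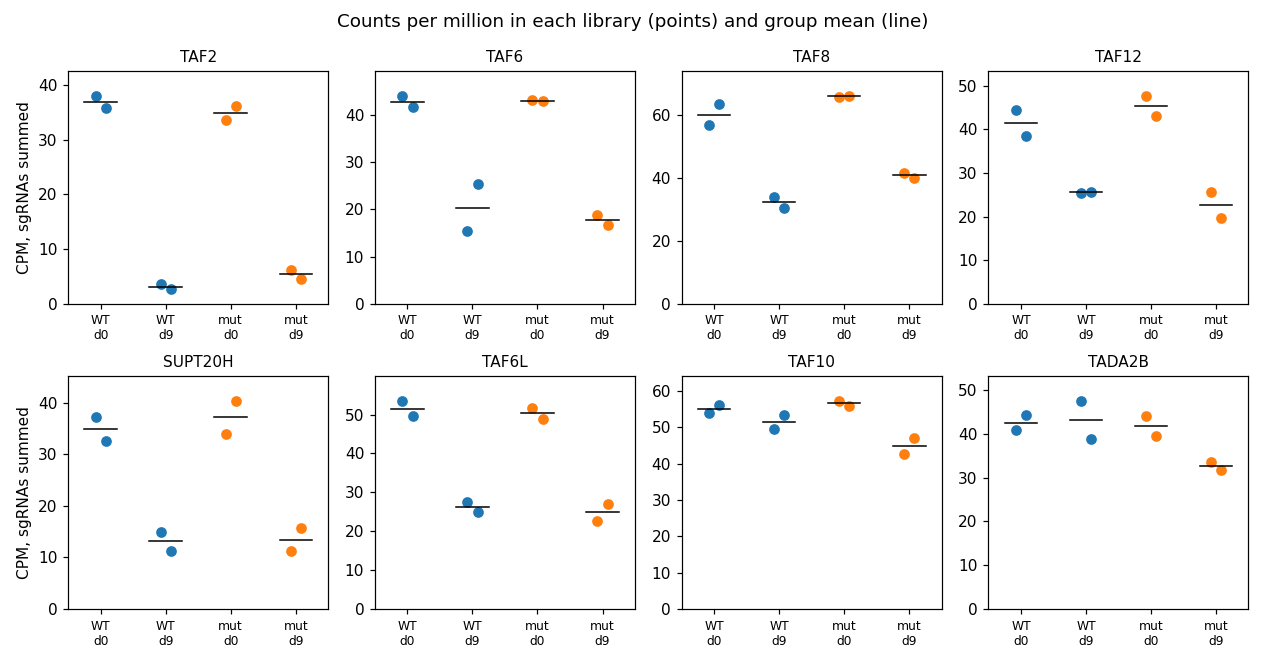
CPM summed over the sgRNAs of 8 genes in each of the 8 libraries (points) with the mean of each group (line), for wild-type (blue) and mutant (orange) uL16 cells at day 0 and day 9. TAF2, TAF6, TAF8, TAF12, SUPT20H and TAF6L are lower in every day 9 library, while TAF10 and TADA2B lie near their day 0 level in wild-type and below it in mutant cells.

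Within the SAGA core, SUPT20H and TAF6L fell most. SUPT20H, a core subunit needed for SAGA assembly, stood at 37.3 and 32.6 CPM at day 0 and 15.0 and 11.2 at day 9 in wild-type cells, and at 34.0 and 40.3 against 11.2 and 15.6 in mutant cells. It changed by -1.42 (SE 0.18) and -1.45 (SE 0.18), with adjusted p of 1.67e-07 and 7.37e-08 by edgeR. TAF6L, the SAGA paralog of TAF6, stood at 53.5 and 49.6 CPM against 27.4 and 25.1 in wild-type cells, and at 51.7 and 48.9 against 22.7 and 27.1 in mutant cells. It changed by -0.97 (SE 0.13) and -1.01 (SE 0.13). For both genes the days did not overlap. The lines differed by -0.038 (95% interval -0.55 to 0.47) for SUPT20H and by -0.034 (-0.40 to 0.33) for TAF6L.

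TADA1, a SAGA histone-fold subunit, fell, with changes of -0.62 (SE 0.11) and -0.49 (SE 0.11), and its mutant call was lost without the second mutant day 0 library (adjusted p 0.0902 by edgeR). SUPT7L, the SAGA partner of TAF10, had a change of -0.034 (SE 0.089) in wild-type and fell by 0.29 (SE 0.088, adjusted p 0.0249) in mutant cells. Of the 5 sgRNAs of SUPT7L, 1 was called alone, and this sgRNA was called in both lines, at -0.76 and -1.04. The mutant call of SUPT7L was lost without the second mutant day 0 library (-0.21, adjusted p 0.481) and without the first mutant day 9 library (-0.22, 0.236). TAF5L, the SAGA paralog of TAF5, changed by -0.17 (SE 0.12) and -0.20 (SE 0.12). SUPT3H, a SAGA subunit with paired histone folds, changed by -0.14 (SE 0.12) and 0.023 (SE 0.12), with -0.46 in wild-type cells by limma (adjusted p 0.0343). The limma value weights each sgRNA equally, and the lowest sgRNA of SUPT3H, at -1.82 (SE 1.21) in wild-type cells, had a mean count of only 30.6. Its other sgRNAs lay between -0.24 and -0.029 in wild-type cells.

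TRRAP is the activator-binding scaffold of SAGA and also of the NuA4 (TIP60) acetyltransferase complex. It stood at 36.5 and 43.2 CPM at day 0 and 28.9 and 33.5 at day 9 in wild-type cells, and at 46.5 and 44.3 against 28.5 and 26.9 in mutant cells. Day 9 lay below day 0 in both lines, by the wider gap in mutant cells. TRRAP fell by 0.71 (SE 0.13, adjusted p 9.10e-05 by edgeR) in mutant cells, and its wild-type change was -0.35 (SE 0.13, adjusted p 0.0936), which passed with DESeq2 (adjusted p 0.0257) and without the second wild-type day 9 library (-0.46, 0.0400). The difference between the lines was -0.36 (95% interval -0.74 to 0.011, unadjusted p 0.0569). Of the 5 sgRNAs of TRRAP, 0 were called alone in wild-type and 1 in mutant cells, and all 5 were below 0 in both lines.

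No gene of the acetyltransferase module was called by edgeR, and at an unadjusted p under 0.05 1 of the 5 was lower in each line, KAT2A in wild-type and TADA2B in mutant cells, where 13.6% and 13% of all genes were. The catalytic subunits KAT2A (GCN5) and KAT2B (PCAF), which can replace each other in the complex, changed by -0.29 (SE 0.11, adjusted p 0.109) and -0.066 (SE 0.11), and by 0.16 (SE 0.11) and 0.19 (SE 0.11). Without the first wild-type day 9 library KAT2A reached -0.50 in wild-type cells (adjusted p 0.00279). TADA2B, the adaptor that marks SAGA, stood at 40.9 and 44.2 CPM at day 0 and 47.5 and 38.9 at day 9 in wild-type cells, and at 44.1 and 39.4 against 33.6 and 31.8 in mutant cells. The days overlapped in wild-type and not in mutant cells, with changes of 0.021 (SE 0.12) and -0.35 (SE 0.12, adjusted p 0.0743). The mutant change of TADA2B passed when scaled to the control sgRNAs (adjusted p 0.0397), with DESeq2 (0.0194) and without either wild-type day 9 library (0.0356 and 0.0324). The adaptor TADA3 changed by -0.034 (SE 0.093) and 0.084 (SE 0.093), and CCDC101, which reads methylated histone H3, by -0.077 (SE 0.13) and -0.027 (SE 0.13).

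USP22, the ubiquitin protease of the deubiquitinase module, was the module's called gene. It stood at 69.7 and 65.3 CPM at day 0 and 51.6 and 50.8 at day 9 in wild-type cells, and at 67.9 and 68.2 against 53.8 and 55.4 in mutant cells, with no overlap. It changed by -0.40 (SE 0.098) and -0.32 (SE 0.097), although none of its 5 sgRNAs was called alone. The wild-type call was lost without the first wild-type day 0 library (adjusted p 0.100 by edgeR). The mutant call was lost without any 1 of the 4 mutant libraries (adjusted p between 0.0678 and 0.221), without the most abundant sgRNA (0.587), and with limma (0.353). The cofactors ENY2, which also serves mRNA export, and ATXN7L3, which activates USP22, changed by -0.37 (SE 0.14, adjusted p 0.111 by edgeR and 0.0451 by DESeq2) and -0.12 (SE 0.14), and by -0.016 (SE 0.11) and -0.013 (SE 0.11).

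ATXN7, which anchors the deubiquitinase module to SAGA, was measured through 2 transcript-named sets of 5 sgRNAs. The set named ENST00000398590.3 changed by -0.21 (SE 0.12) and -0.25 (SE 0.11), and the set named ENST00000538065.1 by -0.13 (SE 0.10) and -0.067 (SE 0.10). Neither was called by edgeR over the 2981 sets outside P1 and P1P2, where 0.671% and 0.537% were called lower. These 2981 are second-promoter (P2) sets and transcript-named sets together. At an unadjusted p under 0.05, 0 of the 2 ATXN7 sets were lower in wild-type cells (3.02% of the 2981 sets). In mutant cells 1 was (2.82%), the set named ENST00000398590.3 (p 0.0386 by edgeR).

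The 5 ATAC genes gave 0 calls by edgeR in either line, 0 at an unadjusted p under 0.05, and 0 by DESeq2 and limma. The shares of all genes called lower were 9.28% and 9.07%, and 13.6% and 13% at an unadjusted p, so 0 of 5 is near the background. Their changes ran from -0.15 to 0.090 in wild-type cells and from -0.083 to 0.17 in mutant cells, with medians of -0.13 and 0.031. DR1, which also forms the NC2 repressor of TBP, changed by -0.15 (SE 0.11) and 0.031 (SE 0.11), and TADA2A, the ATAC adaptor, by -0.13 (SE 0.095) and 0.17 (SE 0.094). YEATS2, a reader of acylated histone H3, changed by 0.090 (SE 0.13) and 0.12 (SE 0.13). ZZZ3, a reader of the histone H3 tail, changed by -0.075 (SE 0.13) and -0.083 (SE 0.13), and MBIP, a scaffold subunit, by -0.14 (SE 0.12) and -0.047 (SE 0.12).

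Of the paralog pairs, TAF6 and TAF6L both fell in both lines. TAF5 fell in both lines, and the changes of TAF5L, given above, were not called. TAF9B, the paralog of TAF9, changed by -0.12 (SE 0.094) and -0.040 (SE 0.093), and TAF4B, that of TAF4, by 0.022 (SE 0.10) and -0.091 (SE 0.10). No test was made between genes, whose sgRNAs may differ in strength.

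Single sgRNAs showed how each gene's change was made up. Of the 168 sgRNAs, 35 (20.8%) were called lower in wild-type cells and 32 (19.0%) in mutant cells by edgeR, beside 5.2% and 5.09% of all 102987 targeting sgRNAs, and 28 were called in both lines, where 4.16% of all were. They fell on 16 and 14 of the 34 genes. None was called higher (0.266% and 0.165% of all). Counting sgRNAs called in at least 1 line, 17 genes had 0 called sgRNAs, 3 had 1, 8 had 2, 5 had 3, and TAF2 had all 5. Among the control sgRNAs, 11 were called lower and 6 higher in wild-type cells, and 10 and 3 in mutant cells.

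**Figure D3:**
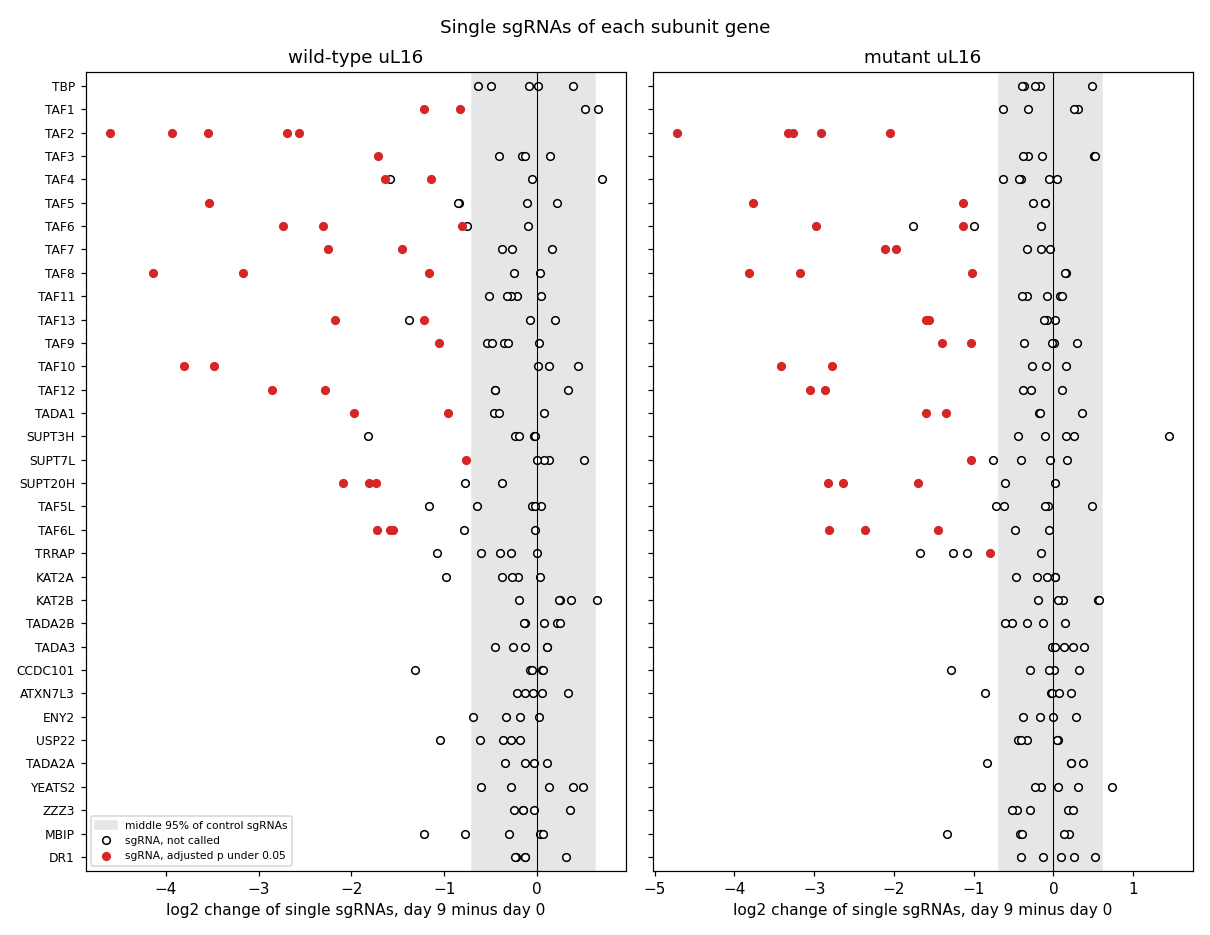
Log2 change of each of the 168 sgRNAs (points), by gene, in wild-type (left) and mutant (right) uL16 cells; red points passed an adjusted p of 0.05 and the grey band is the middle 95% of the control sgRNAs. In most genes with red points the remaining sgRNAs lie near the band, and all 5 of TAF2 are red in both panels.

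In several genes the sgRNAs that fell lay close together and apart from the rest. In TAF12 the 2 called sgRNAs lay 26 bases apart, at -2.86 and -2.29 in wild-type and -3.05 and -2.86 in mutant cells, and the nearest of the other 3 was 366 bases away. In TAF6L the 3 called sgRNAs spanned 32 bases, at -1.73, -1.58 and -1.56 in wild-type cells and -2.36, -1.45 and -2.82 in mutant cells, with the nearest uncalled sgRNA 355 bases away. In SUPT20H the 3 called sgRNAs spanned 68 bases, and the nearest uncalled one was 155 bases away. The upstream windows of these 3 genes are printed above. In TAF9 the 2 sgRNAs called in mutant cells, those shared with RAD17, lay 10 bases apart and 322 bases from the nearest uncalled one. In wild-type cells 1 of these 2 was called. In TAF5 the 2 sgRNAs called in at least 1 line lay 18 bases apart and 147 bases from the next. TAF5 drew most of its change from 1 sgRNA, at -3.53 and -3.76, while its most abundant sgRNA was at -0.11 and -0.10.

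Other genes had called and uncalled sgRNAs side by side. In TAF8 the sgRNA at -4.13 in wild-type cells lay 25 bases from one at 0.033, and the other called sgRNAs were at -3.16 and -1.16. In TAF13 the 3 sgRNAs called in at least 1 line spanned 34 bases. Of these, the sgRNA at -2.18 and -1.57 was called in both lines. That at -1.22 and 0.015 was called in wild-type cells alone, and that at -1.39 and -1.60 in mutant cells alone. An uncalled sgRNA at -0.079 and -0.084 lay 4 bases from the one called in both lines. TAF7 had 2 called sgRNAs, at -1.45 and -2.25 in wild-type and -1.98 and -2.11 in mutant cells.

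The sgRNAs of 7 of the 34 genes lay within 1 kb of those of another gene, where repression may reach both promoters. Besides RAD17 at TAF9, these were CNPY4 at TAF6, SLC4A1AP at SUPT7L, URB2 at TAF5L, CCDC96 at TADA2B, ARPC4 and ARPC4-TTLL3 at TADA3 (1 shared sgRNA) and NUDCD1 at ENY2. Of these neighbours RAD17 was called, and the others changed by between -0.26 and 0.31. At TAF6 the nearest sgRNAs of the genes were 327 bases apart. CNPY4 changed by -0.26 (SE 0.11) and 0.096 (SE 0.11) and was not called, and TAF6 fell by over 1 in both lines. Whether any change came through a neighbouring promoter was not tested.

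The lines shared no library. The correlation between the lines was 0.935 over the 34 genes, 0.883 without TAF2 (33 genes), 0.831 over the 168 sgRNAs and 0.902 over all genes, given as a description.

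**Figure D4:**
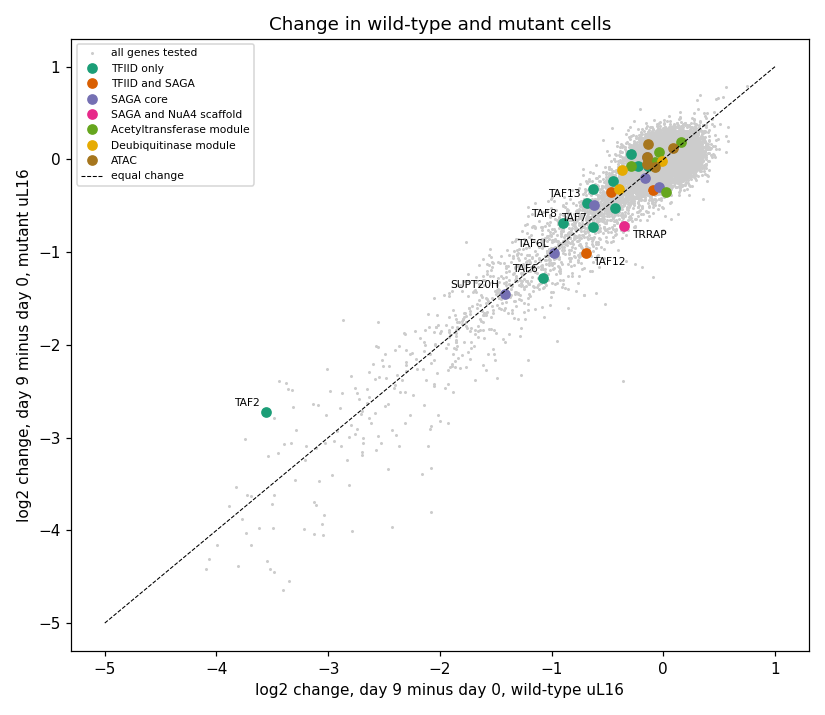
Log2 change in mutant against wild-type uL16 cells, with all 17547 genes in grey, the 34 genes coloured by module and a dashed line of equal change. The 34 genes follow the line, with TAF2 above it (-3.56 and -2.73) and TAF12 and TRRAP below it.

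None of the 34 genes passed the test of the difference between the lines (mutant change minus wild-type change), where edgeR called 0.0171% of all genes lower and 0 higher. DESeq2 and limma also called 0 of the 34. At an unadjusted p under 0.05 edgeR found 5 of the 34, 14.7%, beside 5.68% of all genes. The median difference was 0.070 over the 34 genes and -0.0015 over all genes. Of the 34 genes 22 were above 0, as were 8712 of all 17547 genes. Over the 11 genes of TFIID alone the median was 0.21, and 8 of the 11 were above 0. The median was 0.096 over the 5 ATAC genes, with 4 above 0, and -0.031 over the 6 of the SAGA core, with 2 above 0.

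The largest of these differences was that of TAF2, at 0.83 (95% interval 0.24 to 1.42, unadjusted p 0.00729, adjusted p 0.865 by edgeR), from the smaller fall in mutant cells. Its sgRNAs did not differ one way: at an unadjusted p under 0.05, the differences of 2 were 1.69 and 1.50 and that of another was -2.15. Low day 9 counts limit these values. The sgRNA at 1.69 stood at 0.17 and 0.38 CPM in wild-type day 9 libraries. That at -2.15 stood at 0.13 and 0.12 CPM in mutant day 9 libraries. TAF3 differed by 0.35 (interval 0.041 to 0.65, unadjusted p 0.0275) and TADA2A by 0.30 (0.028 to 0.57, unadjusted p 0.0316), both higher in mutant cells. The single sgRNAs of TAF3 differed by 0.022 to 1.33. Those of TADA2A differed by -0.49 to 0.50, and the 1 at 0.50 was the most abundant (mean count 2505). SUPT7L differed by -0.26 (-0.51 to -0.0046, unadjusted p 0.0463) and TADA2B by -0.37 (-0.73 to -0.015, unadjusted p 0.0419), both lower in mutant cells. The single sgRNAs of SUPT7L differed by -1.26 to 0.18 and those of TADA2B by -0.60 to 0.0023. The adjusted p of these 4 genes lay between 0.865 and 0.874, so none passed the adjusted threshold.

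TAF4 and TAF12 had intervals that reach both sides of 0. The difference of TAF4 was 0.31 (-0.075 to 0.70), and its single sgRNAs differed by 0.74, 1.00 and 1.63 at an unadjusted p under 0.05, with another at -1.13. The difference of TAF12 was -0.31 (-0.72 to 0.091). Over all 168 sgRNAs, edgeR called 0 differences, and 18 (10.7%) had an unadjusted p under 0.05, beside 5.11% of all sgRNAs.

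**Figure D5:**
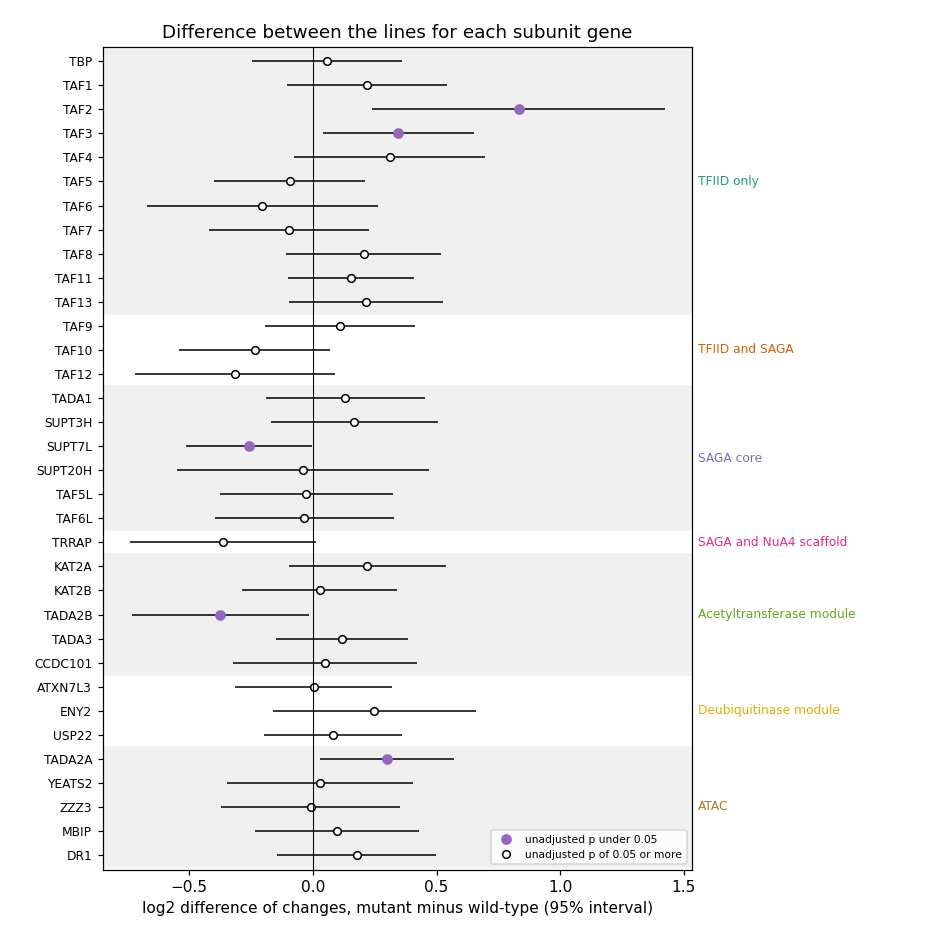
Difference of log2 changes, mutant minus wild-type, for each of the 34 genes with its 95% interval; filled points had an unadjusted p under 0.05 and none passed after adjustment. TAF2, TAF3 and TADA2A lie above 0 and SUPT7L and TADA2B below it.

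Genes of neighbouring complexes were counted from lists of their own. Beside each list, 9.28% of all genes were called lower in wild-type and 9.07% in mutant cells, and the medians over all genes were 0.010 and 0.011. Of 16 general transcription factor genes tested, 11 fell in wild-type and 10 in mutant cells, with medians of -0.54 and -0.47. ERCC2, the helicase of TFIIH that repair also uses, fell, with changes of -0.84 (SE 0.11) and -0.83 (SE 0.11). GTF2B, which bridges TBP and the polymerase, fell, with changes of -0.64 (SE 0.16) and -1.20 (SE 0.16), and so did the TFIIH subunit GTF2H3, with -0.64 (SE 0.11) and -0.84 (SE 0.11). GTF2H5, also of TFIIH, fell by 1.00 (SE 0.15) in wild-type cells and had a mutant change of -0.42 (SE 0.15, adjusted p 0.0788 by edgeR). Of 8 genes of other TBP complexes, 6 and 5 fell, with medians of -0.68 and -0.76. They were led by subunits of the SL1 factor of RNA polymerase I: TAF1A fell, with changes of -1.15 (SE 0.16) and -1.21 (SE 0.16), TAF1C with -0.89 (SE 0.13) and -0.84 (SE 0.13) and TAF1B with -0.67 (SE 0.16) and -1.03 (SE 0.16).

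Of 15 NuA4 (TIP60) genes, 8 and 7 fell, with medians of -0.51 and -0.43. RUVBL1, an ATPase of several chromatin and assembly complexes, fell, with changes of -2.97 (SE 0.35) and -3.41 (SE 0.35), ACTL6A, an actin-related subunit, with -1.04 (SE 0.16) and -0.88 (SE 0.16), and MRGBP with -0.66 (SE 0.18) and -1.20 (SE 0.18). Of 19 further subunits and paralogs of TFIID, SAGA and ATAC, 5 and 4 fell, with medians of -0.083 and -0.091. WDR5, shared by ATAC and histone H3 lysine 4 methyltransferases, fell, with changes of -3.52 (SE 0.38) and -4.42 (SE 0.40). CSRP2BP, the second ATAC acetyltransferase (KAT14), fell, with changes of -1.24 (SE 0.12) and -1.73 (SE 0.12), but all 6 of its sgRNAs are also listed for PET117, a mitochondrial assembly factor, so the genes cannot be told apart. The others, named after their values were seen, were the splicing factor genes SF3B3 (-1.08 and -1.19) and SF3B5 (-0.999 and -0.75) in both lines and the kinase gene MAP3K7 (-0.41) in wild-type cells.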

How the data were processed

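The deposited table holds raw counts of reads per sgRNA, 1 column per library, with no normalization. Per the file headers, the authors trimmed reads to bases 1 to 39 and counted them against a human CRISPRi version 2 library; the submitters' processing notes name hg38. No counting program is named in the sources used here. Reads carry no molecular identifiers, so PCR copies are counted and depth bounds counting error alone.

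Primary-promoter sgRNAs with a mean count of 20 or more were added up by gene, and genes with at least 3 were tested: 87897 sgRNAs of 17547 genes. Counts were TMM-normalized and fitted with edgeR 4.0.16 (quasi-likelihood, R 4.3.3), with 1 mean per group over all 8 libraries. Contrasts were day 9 minus day 0 in each line and the difference of these (mutant minus wild-type). P-values were adjusted by Benjamini-Hochberg over all features tested (threshold 0.05). CPM are scaled to the TMM-adjusted total of the table tested. Single sgRNAs and the sets outside P1 and P1P2 (P2 or transcript-named) were tested the same way. The scripts were tested on simulated data. Alternatives were other scalings, DESeq2 1.42.0, limma 3.58.1, other filters, all promoters pooled, replicate blocks and leaving out each library; leaving out shared sgRNAs was chosen after seeing the data.

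Every gene listed is named; of each other list, the 2 genes with the smallest p in each line are named, and genes within 1 kb of a listed gene. The members and lists were chosen with earlier results of these data known. Promoters are from RefSeq (GRCh38.p14); TAF2, TAF8, TRRAP and ENY2 had no entry matched.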

Additional observations from a re-analysis of the deposited data

How the results depend on the processing

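The count of the 34 genes called was 12 to 16 in wild-type and 10 to 16 in mutant cells when each library was left out in turn, and 0 in the difference each time. Single sgRNAs called were 24 to 37 in wild-type and 24 to 37 in mutant cells, and 0 in the difference, and transcript-named sets 0. Of the single sgRNAs, 1 was called higher in mutant cells without either wild-type day 9 library, and 1 in wild-type cells without the second. Over all genes the count was 1802 (1295 to 1977) in wild-type cells, 1731 (1246 to 2012) in mutant cells and 3 (1 to 21) in the difference, where it was 21 without the first wild-type day 9 library, 5 without either mutant day 9 library and 1 without the first wild-type day 0 library. Genes called higher were 173 in wild-type cells (48 to 336 leaving out 1 library, 83 scaled to control sgRNAs) and 140 in mutant cells (35 to 243, and 69). DESeq2 called 2713 genes in wild-type cells (2017 lower, 696 higher) and 47 in the difference, limma and pooling all promoters called 1 each in the difference; the cause was not tested. Of 14 wild-type calls among the 34 genes, 10 held under every alternative run, and of 15 mutant calls 9 (TAF2, TAF5, TAF6, TAF7, TAF8, TAF12, SUPT20H, TAF6L and TRRAP). Of 2006 values compared, 25 lost their call, 16 gained one, no called value changed sign, and 73 values that were uncalled in both fits did. Deviations of same-numbered libraries correlated between -0.0081 and 0.044. Such values cannot show whether replicate numbers pair the samples, because the labels do not say how same-numbered libraries are related. A replicate block called 14 and 15 of the 34 genes, as without it, and 5 genes in the difference (10 with a block within each line); single sgRNAs called were 35 and 33. In day 9 libraries 27 to 98 kept sgRNAs had a count of 0, against 0 to 6 at day 0, which limits how deep a fall can be measured.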
